A study of Mus musculus with 12 samples.

Results

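The genes described here are 39 mouse genes of motile cilia and of the cells that carry them, with the forkhead gene Foxj1 as the marker. They were listed with earlier results of these data in view, because their levels differed between the 8 libraries whose column names carry the prefix-12062 mark and the 4 whose names carry the prefix-11990 mark, called the 8-library and the 4-library set here. A listed gene was kept where its row was above 0 FPKM (fragments per kilobase of transcript, scaled to sequencing depth) in at least 3 of the 12 columns. Of the 39 genes, 38 have a row among the 19083 genes of the table, and all 38 were kept; Sntn was not analysed here. Tekt4 was above 0 in 11 columns and the other 37 genes in all 12, so no gene with a row fell outside the rule. Tests and differences also required a mean of at least 0.1 FPKM over the 12 libraries, which 37 of the 38 genes reached. Hydin lay just inside that limit with a mean of 0.1 FPKM, and Cdhr3, at 0.072 FPKM, was the gene outside it.

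Motile cilia are beating, microtubule-based projections that move fluid over the epithelia of the airways, the oviduct and the brain ventricles. In the nose they arise on multiciliated cells of the respiratory epithelium, which lines the nasal side of the palate, whereas the oral side carries a stratified epithelium. A multiciliated cell is specified by multicilin and Foxj1, multiplies its centrioles, and builds axonemes in which dynein arms, radial spokes and a central pair of microtubules drive and regulate the beat. Most other cells carry a single primary cilium that lacks these parts and signals instead of beating.

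The libraries were made from messenger RNA of micro-dissected palatal shelves of single C57BL/6 mouse embryos labelled embryonic day 14. The 4 groups, with 3 embryos each, were WAY-treated Pax9-/- mutants, WAY-treated controls, untreated Pax9-/- mutants and untreated controls. Treated embryos came from Pax9+/- mothers injected with WAY-262611, a small-molecule Wnt agonist, through the tail vein each day between stages E10.5 and E14, and no vehicle is named for the untreated ones. The WAY-treated controls were 2 Pax9+/+ embryos and 1 Pax9+/- embryo, and the untreated controls were 1 Pax9+/+ and 2 Pax9+/- embryos. By its title, the series asks what a Wnt agonist does to the forming palate.

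The 8-library set holds 2 libraries per group and the 4-library set 1 per group. The numbers in the sample titles, read here as 4 litters, split the same way, with 1 treated and 1 untreated litter in each set, so set and litter cannot be told apart. The controls of the 8-library set were 1 Pax9+/+ and 3 Pax9+/- embryos, and those of the 4-library set were 2 Pax9+/+ embryos. Control genotype therefore differs between the sets as well. Within the 8-library set both untreated controls were Pax9+/-, while the treated controls were 1 Pax9+/+ and 1 Pax9+/- embryo. Treatment and control genotype are thus partly mixed there. All 12 labels give embryonic day 14, while the shared protocol names E13.5 and E14. Depth was 37.4 to 46.8 M reads in the 8-library set and 36.8 to 49.8 M in the 4-library set. Pax9 itself followed the labels, at 5.9 ± 0.847 FPKM in mutants (SD, n = 6), against 21.4 ± 1.28 in heterozygous (SD, n = 3) and 32.0 ± 4.82 FPKM in wild-type embryos (SD, n = 3). These are bulk values, so fewer ciliated cells and less ciliary RNA per cell cannot be told apart.

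The sequences before the RefSeq starts of 6 of the genes are shown. They hold the 6-letter core of 1 arm of the X-box, the element that RFX factors such as the members Rfx2 and Rfx3 bind. The letters GTTGCC, or GGCAAC for the same site on the other strand, were searched on both strands of the 250 bases before each start in RefSeq windows of the build GRCm38.p6, and capitals mark each match. The 6 genes are those with a match and a difference between the sets above 2 on the log2 scale.
Dynlrb2 (chr8:116504934-116504999, plus strand): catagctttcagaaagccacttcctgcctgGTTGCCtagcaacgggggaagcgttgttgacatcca
Ccno (chr13:112987552-112987801, plus strand): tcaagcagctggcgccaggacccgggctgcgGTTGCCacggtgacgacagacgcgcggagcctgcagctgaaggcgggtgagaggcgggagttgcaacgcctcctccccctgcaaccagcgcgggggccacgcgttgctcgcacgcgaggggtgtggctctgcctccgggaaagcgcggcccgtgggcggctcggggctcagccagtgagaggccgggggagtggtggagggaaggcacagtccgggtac
Mcidas (chr13:112993618-112993867, plus strand): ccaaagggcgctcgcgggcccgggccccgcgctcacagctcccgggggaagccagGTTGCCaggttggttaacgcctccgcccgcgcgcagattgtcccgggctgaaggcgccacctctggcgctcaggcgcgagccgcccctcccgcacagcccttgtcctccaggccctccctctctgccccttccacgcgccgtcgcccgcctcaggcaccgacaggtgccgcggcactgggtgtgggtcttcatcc
Lrrc23 (chr6:124779731-124779914, minus strand): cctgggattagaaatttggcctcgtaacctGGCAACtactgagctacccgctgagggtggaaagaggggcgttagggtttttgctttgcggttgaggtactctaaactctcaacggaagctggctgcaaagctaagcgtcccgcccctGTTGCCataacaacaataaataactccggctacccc
Drc1 (chr5:30281352-30281392, plus strand): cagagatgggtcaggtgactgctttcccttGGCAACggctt
Ccdc113 (chr8:95534064-95534099, plus strand): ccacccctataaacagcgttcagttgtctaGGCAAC
The matches of Dynlrb2, Ccno and Mcidas begin 51, 219 and 195 bases before the RefSeq start, those of Lrrc23 at 157 and 39 bases, and those of Drc1 and Ccdc113 at 11 and 6 bases. The gene coordinates given elsewhere are those of GENCODE M21. The stretches of Dynlrb2, Mcidas, Drc1 and Ccdc113 run past the GENCODE starts, and the match of Ccdc113 lies inside its GENCODE gene, which starts at 95534085. Over the genes with a window, 12 of 32 (37.5%) held the letters, against 3195 of 27025 symbols (11.8%) in the whole table. The 12 were 6 of the 12 genes with a difference above 2 and 6 of the other 20. The forkhead core TGTTTAC, searched in the same way as GTAAACA on the other strand, was in 2 of the 32 windows (6.2%), those of Ak7 and Cfap43, against 956 of 27025 (3.5%). A match is a string of letters and not a measured binding site. Foxj1, Rsph1, Rsph4a, Tppp3, Dnaaf1 and Cfap53 have no window in the table.

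The genes that specify multiciliated cells stood far apart between the sets. Foxj1 (chr11:116330704-116335399, minus strand), the forkhead factor that switches on the motile cilium programme, had 22.9 and 22.4 FPKM in WAY-treated mutants, 36.4 and 28.0 in WAY-treated controls, 23.9 and 25.9 in untreated mutants and 15.5 and 26.5 FPKM in untreated controls of the 8-library set. In the 4-library set it had 1.27 FPKM in the WAY-treated mutant, 1.41 in the WAY-treated control, 1.04 in the untreated mutant and 0.982 FPKM in the untreated control. The lowest library of the 8-library set was therefore above the highest of the 4-library set in every group, with 1643 to 3702 reads per library in the 8-library set and 100 to 169 in the 4-library set. The mean difference, taken within each group and averaged over the 4 groups, was 4.29 on the scale of log2(FPKM + 0.1), the scale of every log2 value here. The choice of the genes used this contrast, so all differences between the sets are given as descriptions without a test.

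Mcidas, which encodes multicilin, averaged 5.01 ± 1.15 FPKM in the 8-library set (SD, n = 8) and 0.175 ± 0.0941 in the 4-library set (SD, n = 4), a log2 difference of 4.25. Its neighbour Ccno, whose product cyclin O acts in the centriole multiplication of these cells, averaged 8.59 ± 1.55 and 0.357 ± 0.114 FPKM in the same 2 sets, a log2 difference of 4.27. Ccno (chr13:112987802-112990777) and Mcidas (chr13:112993845-113000394) follow each other on the plus strand. The RFX factors, which also act in cells with a primary cilium, did not share this pattern. Rfx2 averaged 4.58 ± 0.362 FPKM in the 8-library set and 4.00 ± 0.176 in the 4-library set, and Rfx3 2.86 ± 0.41 and 2.85 ± 0.529 FPKM, with overlapping ranges for both.

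**Figure D1:**
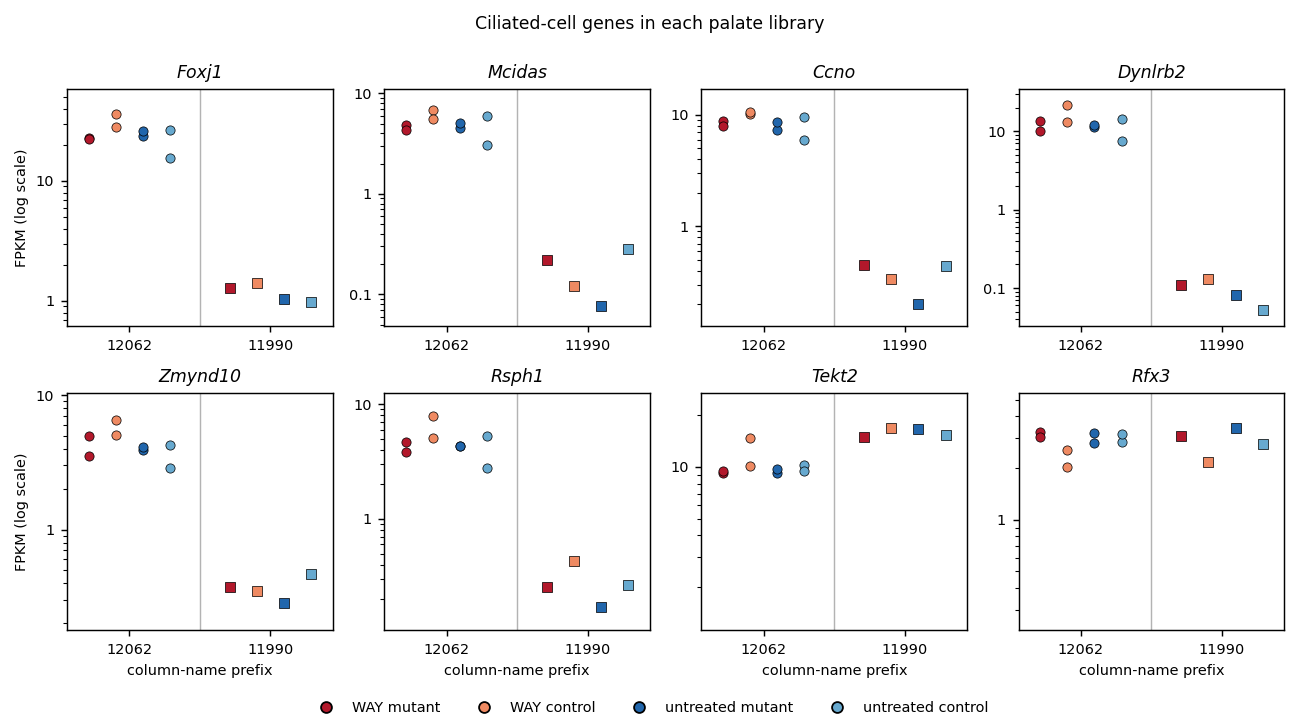
FPKM on a log axis of 8 ciliated-cell genes in each of the 12 palate libraries, with the prefix-12062 libraries left (circles, 2 per group) and the prefix-11990 libraries right (squares, 1 per group) and the groups in colour. Foxj1, Mcidas, Ccno, Dynlrb2, Zmynd10 and Rsph1 are higher in every library of the 8-library set than in any of the 4-library set, Tekt2 is lower in all 8, and the ranges of Rfx3 overlap.

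Among the genes of the dynein arms, the motors of the axoneme, Dynlrb2 (chr8:116504974-116515915, plus strand), a light chain of the roadblock type, had the largest positive difference of the 17981 genes kept, 6.03. It had 13.5 and 9.99 FPKM in WAY-treated mutants, 21.5 and 13.2 in WAY-treated controls, 11.4 and 12.1 in untreated mutants and 7.43 and 14.1 FPKM in untreated controls of the 8-library set. In the 4-library set it had 0.109 FPKM in the WAY-treated mutant, 0.132 in the WAY-treated control, 0.0808 in the untreated mutant and 0.0519 FPKM in the untreated control, which are 1 to 3 reads per library. Set against depth, the 2076 reads of the 8-library set and the 8 reads of the 4-library set differed 136-fold. The exact 95% interval for counting error alone was 69.0 to 316. It leaves out the spread between libraries and the choice of the genes on this contrast, so it is no test of the difference. The outer-arm heavy chains Dnah5, Dnah9 and Dnah11 had differences of 1.65, 0.67 and 1.07, the inner-arm heavy chains Dnah2 and Dnah6 of 0.61 and 1.56, and the inner-arm light intermediate chain Dnali1 of 2.88. All 7 dynein arm genes were higher in each library of the 8-library set than in any of the 4-library set, as were 11.8% of all genes kept. However, Dnah5, Dnah6, Dnah9 and Dnah11 stayed under 1 FPKM throughout.

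The 3 dynein assembly factors act in the cytoplasm, where arms are built before they enter the cilium. Zmynd10 had 4.94 and 3.5 FPKM in WAY-treated mutants, 6.5 and 5.06 in WAY-treated controls, 3.89 and 4.1 in untreated mutants and 2.89 and 4.26 FPKM in untreated controls of the 8-library set, against 0.371 in the WAY-treated mutant, 0.349 in the WAY-treated control, 0.286 in the untreated mutant and 0.470 FPKM in the untreated control of the 4-library set. Dnaaf1 averaged 0.635 ± 0.146 FPKM in the 8-library set and 0.042 ± 0.017 in the 4-library set, with 20.7% of its exon bases overlapping the opposite-strand gene Taf1c in the annotation. Dnaaf3 differed by 0.41 and its ranges overlapped. Non-coding genes on the other strand cover 12.6% of its exon bases (Gm15873) and 10.1% of those of Zmynd10 (Gm34106).

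Genes of the axonemal ruler (Ccdc39, Ccdc40) and of the nexin-dynein regulatory complex and its surroundings (Ccdc65, Drc1, Ccdc113) were all higher in the 8-library set without overlap, by 0.55 to 2.43. The same absence of overlap was found in 11.8% of all genes kept. Ccdc40, the most abundant of these ruler and nexin-dynein genes, had 1.74 and 1.83 FPKM in WAY-treated mutants, 2.40 and 2.04 in WAY-treated controls, 1.82 and 1.69 in untreated mutants and 1.49 and 2.07 FPKM in untreated controls of the 8-library set. In the 4-library set it had 1.38 FPKM in the WAY-treated mutant, 1.32 in the WAY-treated control, 1.22 in the untreated mutant and 1.08 FPKM in the untreated control, so the ranges nearly touched. Ccdc39 shares 16.9% of its exon bases with the opposite-strand gene Ttc14, which averaged 7.41 FPKM. Of the radial spoke and central pair genes, the spoke head gene Rsph1 averaged 4.76 ± 1.46 FPKM in the 8-library set and 0.281 ± 0.109 in the 4-library set. The spoke gene Lrrc23 had 6.55 and 5.55 FPKM in WAY-treated mutants, 9.01 and 6.56 in WAY-treated controls, 4.97 and 5.74 in untreated mutants and 2.91 and 6.10 FPKM in untreated controls of the 8-library set, against 0.891 in the WAY-treated mutant, 0.933 in the WAY-treated control, 0.901 in the untreated mutant and 0.698 FPKM in the untreated control of the 4-library set. Rsph4a, Spag16 and Hydin also did not overlap, at differences of 3.14, 1.25 and 1.15. Rsph9 (0.33) and the central pair gene Spag17 (-0.41) overlapped between the sets.

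Proteins bound to the inner face of the ciliary microtubules gave both directions. Tekt2 (chr4:126322121-126325688, minus strand), a tektin, was the one gene that was lower in every library of the 8-library set, at 9.26 to 14.7 FPKM against 14.9 to 16.9 FPKM in the 4-library set. In the 8-library set it had 9.28 and 9.46 FPKM in WAY-treated mutants, 14.7 and 10.2 in WAY-treated controls, 9.26 and 9.79 in untreated mutants and 10.2 and 9.41 FPKM in untreated controls. In the 4-library set it had 14.9 FPKM in the WAY-treated mutant, 16.9 in the WAY-treated control, 16.5 in the untreated mutant and 15.4 FPKM in the untreated control. The non-coding gene Gm12945 covers 20.8% of its exon bases on the other strand, and the strand setting of the counts is not given in the sources used here. Tekt1 averaged 5.86 ± 1.49 FPKM in the 8-library set and 1.61 ± 0.0743 in the 4-library set. Cfap52, Cfap126 and Cfap53 differed by 3.68, 2.52 and 0.83. Tekt4 had 331 reads in the 8-library set and 4 in the 4-library set, where 1 library was at 0. The ratio per depth was 43.4-fold, with an exact 95% interval for counting error alone of 16.8 to 160.3. That interval is likewise no test of the difference.

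Among the other ciliated-cell genes, the adenylate kinase gene Ak7 differed by 2.26, Armc3 by 1.51 and Cfap43 by 1.25, each without overlap. Tppp3, a tubulin polymerization-promoting protein found in many ciliated epithelia, was the second most abundant gene of the set. It had 15.4 and 19.9 FPKM in WAY-treated mutants, 24.1 and 18.5 in WAY-treated controls, 13.9 and 18 in untreated mutants and 10.8 and 15.2 FPKM in untreated controls of the 8-library set. In the 4-library set it had 9.76 FPKM in the WAY-treated mutant, 12.8 in the WAY-treated control, 8.46 in the untreated mutant and 5.24 FPKM in the untreated control, so the sets overlapped. Cdhr3, a cadherin-related protein known in humans as a rhinovirus receptor of ciliated cells, was at 0.0335 to 0.116 FPKM in the 8-library set and 0.0271 to 0.0889 in the 4-library set.

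**Figure D2:**
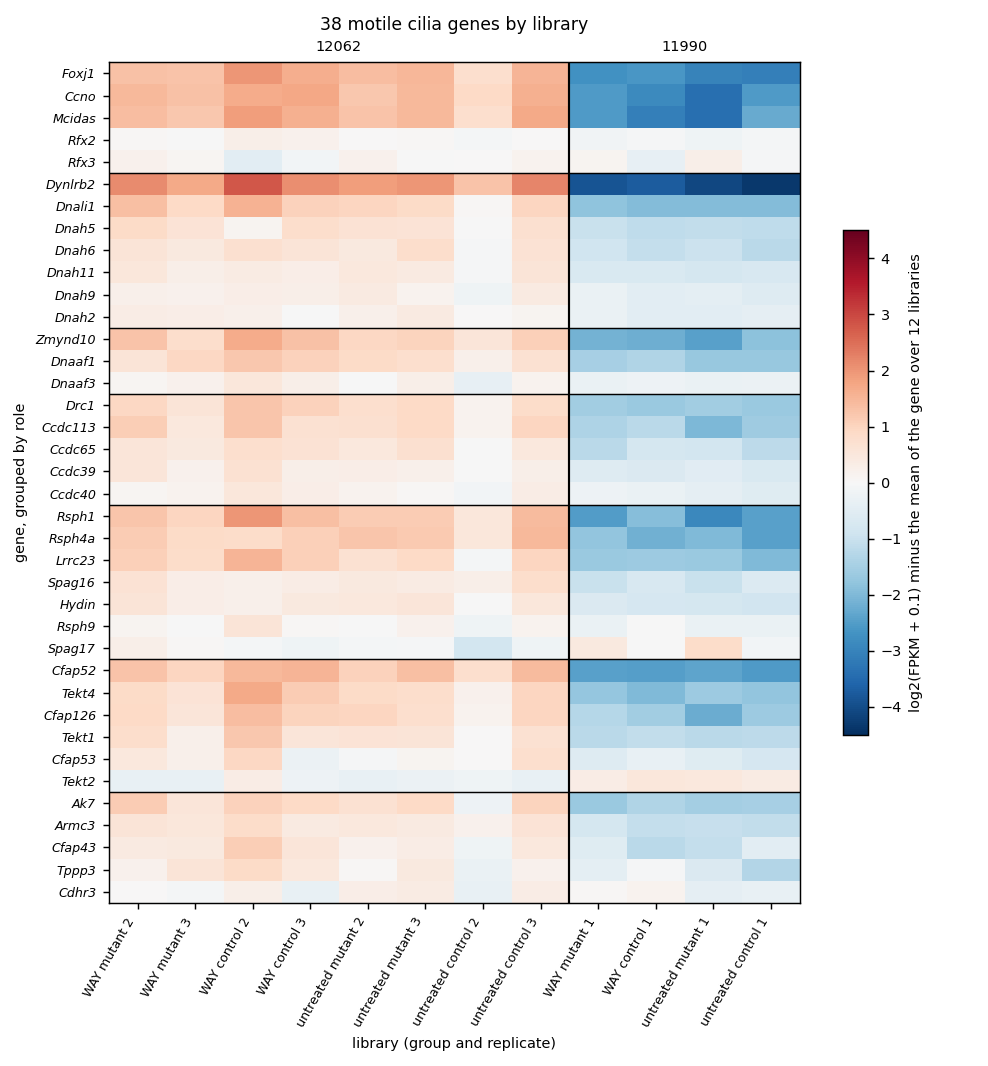
Heat map of the 38 genes (rows, grouped by role) in the 12 libraries (columns, prefix-12062 left and prefix-11990 right), coloured by log2(FPKM + 0.1) minus the mean of the gene over the 12 libraries. Most rows are red in the columns of the 8-library set and blue in those of the 4-library set, Tekt2 runs the other way, and untreated control replicate 2 is the palest column of the 8-library set.

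Over the set, 30 of the 37 genes tested were higher in every library of the 8-library set than in any of the 4-library set, a pattern found in 2121 of 17981 genes (11.8%), and 1 was lower in every one, found in 1547 genes (8.6%). Genes can pass the filter of a mean of 0.1 FPKM through the 8-library set alone, as Hydin did (0.145 FPKM there and 0.0099 in the 4-library set). This favours genes higher in the 8-library set, in the lists below as well. The median log2 difference of the 37 genes was 1.56, against -0.01 for all genes kept. It depended on the constant added before the logarithm, since many of the genes are low, and was 0.90 with 0.5 FPKM and 0.61 with 1 FPKM. A difference above 2 was found in 136 genes, of which 16 belong to the set and 28 to a list of other motile cilia genes, and one above 3 in 49 genes, with 8 and 9 in those lists. Of the 38 genes, 27 were under 1 FPKM in every library of the 4-library set, and 21 were at or above 1 FPKM in every library of the 8-library set.

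The other motile cilia genes differed between the sets in the same direction, while the genes of primary cilia differed little. Of 146 other motile cilia genes kept, 97 (66.4%) were higher in every library of the 8-library set and 0 were lower in every one, with a median difference of 0.96. Over all genes kept these shares were 11.8% and 8.6%. The 2 most abundant of the other motile cilia genes, Tubb4b (78.4 FPKM in the 8-library set, 65.2 in the 4-library set) and Gas8 (20.1 and 22.8 FPKM), are also used outside motile cilia and differed little. Deup1, the scaffold of the deuterosome, averaged 5.79 FPKM in the 8-library set and 0.057 in the 4-library set, and Cdc20b 3.06 and 0.041 FPKM. Of 55 genes of primary cilia and intraflagellar transport, 7 (12.7%) were higher in every library of the 8-library set and 5 (9.1%) lower. These shares are near those of all genes, and the median was -0.01. The 2 most abundant primary cilia genes were Arl3 (75.2 and 83.9 FPKM) and Kifap3 (39.5 and 42.5 FPKM). Deup1 and Cdc20b are named here after their values were seen.

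**Figure D3:**
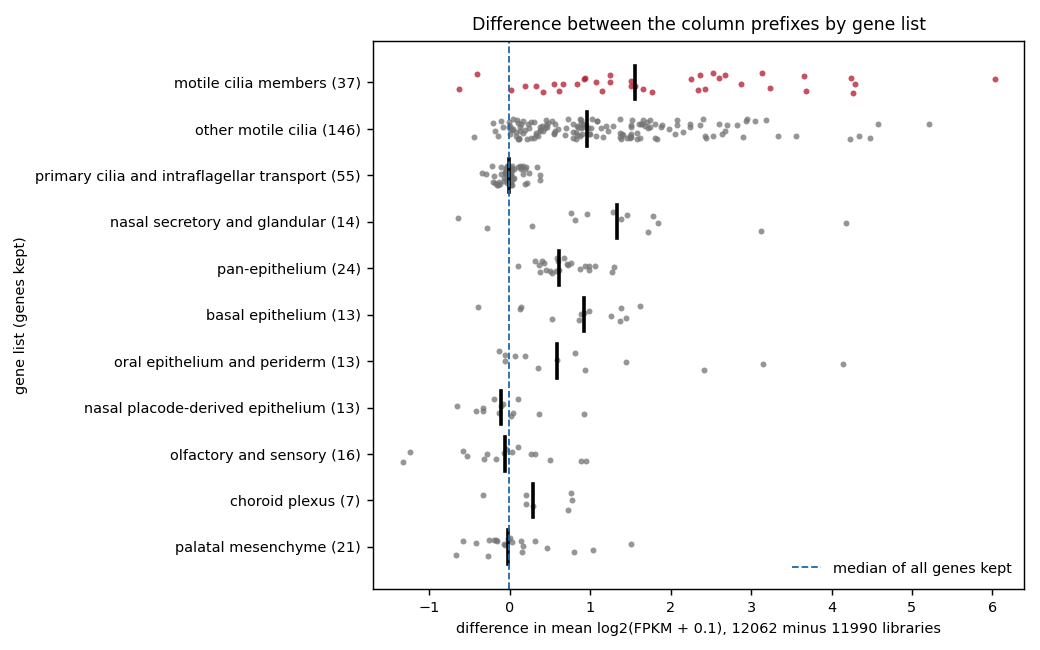
Difference in mean log2(FPKM + 0.1) between the 8-library and the 4-library set for each gene of 11 lists (points, jittered vertically), with black bars at list medians and a dashed line at the median of all genes kept. Motile cilia genes reach 6.03 with a median of 1.56, primary cilia genes lie around 0, and nasal secretory genes have a median of 1.33.

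Markers of the epithelia of the dissected shelf differed as well. Of 14 nasal secretory and glandular genes kept, 11 were higher in every library of the 8-library set and 0 lower in every one. Of all genes kept, 11.8% were higher and 8.6% lower in this way, for this and the following lists. The differences of the nasal list ran from -0.65 to 4.17, with a median of 1.33. Ltf (0.326 FPKM in the 8-library set and 0.605 in the 4-library set) and Foxa2 (0.298 and 0.358 FPKM) had lower means in the 8-library set, with overlapping ranges. Cyp2f2, a cytochrome P450 of airway secretory cells, averaged 35.8 FPKM in the 8-library set and 4.28 in the 4-library set. Creb3l1, the most abundant gene of the list, averaged 47.5 and 19.6 FPKM. Which cells of the shelf its RNA came from was not tested, so its difference cannot be assigned to nasal epithelium. Bpifa1, a secreted protein of nasal epithelium, averaged 8.26 and 0.432 FPKM and was named after its values were seen. Of 24 pan-epithelial genes, 17 were higher in every library of the 8-library set and 0 lower (median 0.61), led by Epcam (57 and 38.04 FPKM) and Spint2 (55.0 and 38.9 FPKM). Their summed level was 447 to 655 FPKM in the 8-library set and 298.3 to 389.3 in the 4-library set. Basal epithelial genes had 10 higher and 1 lower of 13 (median 0.92; Krt14 219.8 and 92.2 FPKM, Krt5 202.2 and 79.7 FPKM), and oral and periderm genes 8 higher and 0 lower of 13 (median 0.58; Krt17 245.9 and 90.5 FPKM, Sfn 38.3 and 20.01 FPKM). The differences of the oral and periderm genes ran from -0.13 to 4.14. The largest were those of Krt13 (7.06 FPKM in the 8-library set and 0.33 in the 4-library set) and Krt6a (31.4 and 3.59 FPKM), at 4.14 and 3.14. Krt4 differed by 2.42. These 3 keratin genes were named after their values were seen. The part of these shifts in the differences of the cilia genes was not tested.

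Other tissues with motile cilia or sensory epithelium gave less. Transthyretin (Ttr), the most abundant transcript of the choroid plexus, was at 0 to 0.225 FPKM in the 8-library set and 0.09 to 0.245 in the 4-library set, and the 7 choroid plexus genes kept had 2 higher and 0 lower (median 0.29; Clic6 6.32 and 3.67 FPKM, Steap1 1.87 and 1.07 FPKM). The olfactory marker Omp averaged 0.132 and 0.089 FPKM, and the 16 olfactory and sensory genes kept had 0 higher and 2 lower (median -0.06; Tubb3 20.2 and 17.4 FPKM, Stmn2 18.4 and 11.7 FPKM). Genes of epithelium derived from the nasal placode had 0 higher and 3 lower of 13 (median -0.11; Sox2 26.9 and 28.6 FPKM, Dlx5 23.2 and 25.3 FPKM). Palatal mesenchyme genes had 4 higher and 3 lower of 21 (median -0.03; Col1a1 1236 and 432 FPKM, Col3a1 555 and 447 FPKM). In each pair of values the mean of the 8-library set comes first. Higher and lower mean in every library of the 8-library set, which held for 11.8% and 8.6% of all genes kept.

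Within the 8 libraries of the 8-library set most of the cilia genes varied together. The correlation of each gene with the mean of the other members, on the log2 scale over those 8 libraries, had a median of 0.88, and it was above 0.8 for 23 of the 37 genes and below 0 for 1, Rfx3 (-0.41). These values share libraries, depth and scaling and are descriptions. The share of all genes above 0.8 was not computed, so the count is not set against a background. For the 16 genes with a difference above 2 between the sets, WAY-treated control replicate 2 had the highest level in 12, and untreated control replicate 2 had the lowest in all 16. The 38 genes summed to 194 FPKM in that treated control and to 93.7 in that untreated one, against 127 to 149 FPKM in the other 6 libraries of the set. Pan-epithelial genes summed to 655 FPKM in the first and 521 in the second, the highest and the lowest of the 4 controls of the set. The other 2 controls had 569 and 596 FPKM, and the 4 mutants had 447 to 494 FPKM. Nasal secretory genes summed to 158 FPKM in the treated control and 100 in the untreated one, against 125 to 146 FPKM in the other 6 libraries. WAY-treated control replicate 2 and untreated control replicate 2 are both labelled Pax9+/-. In the 4-library set the 38 genes summed to 43.4 to 53.9 FPKM.

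The 10 genes outside the set whose levels over the 8 libraries were most like the members' mean, among 15165 genes compared, were Cfap57, Pifo, Ccdc146, Crocc2, Dnah3, Daw1, Dnah10, Efcab12, Cfap74 and Pih1d2. Their correlations were 0.969 to 0.991, and 8 of the 10 are in the list of other motile cilia genes. Over all 12 libraries the 10 were Pifo, Dnajb13, Maats1, Ccdc146, Cfap65, Nme9, Dnah3, Crocc2, Spag6l and Enkur, at 0.995 to 0.997. The members' mean over 12 libraries follows mostly the difference between the sets, on which the genes were chosen. Any gene with a like difference is therefore bound to correlate highly, so this second list is a description only. Genes such as Nme9 (0.519 FPKM in the 8-library set and 0 in the 4-library set) passed the filter through the 8-library set alone. Pifo averaged 2.95 FPKM in the 8-library set and 0.025 in the 4-library set.

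**Figure D4:**
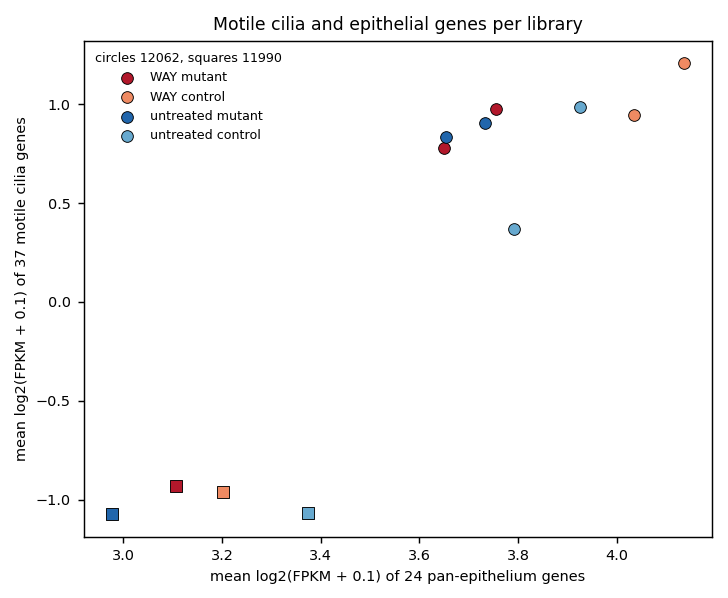
Mean log2(FPKM + 0.1) of the 37 motile cilia genes against that of 24 pan-epithelium genes, 1 point per library (circles prefix-12062, squares prefix-11990, groups in colour). The 4 mutant libraries of the 8-library set lie left of the 4 controls in pan-epithelial level but at a like cilia level, and untreated control replicate 2 is the lowest circle.

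Loss of Pax9 was compared with a fit of the 4 group means and a term for the set over all 12 libraries (limma, Benjamini-Hochberg adjustment over 17981 genes, threshold 0.05). Over both treatments 0 of the 37 cilia genes passed, while 1390 of all genes did (7.73%, or 6.46% with the litter as a block). Their median log2 fold change, mutant over control, was -0.02, and 17 of 37 were above 0. Foxj1 averaged 23.8 ± 1.53 FPKM in mutants and 26.6 ± 8.59 in controls of the 8-library set (SD, n = 4 each), and 1.15 ± 0.165 FPKM in mutants and 1.2 ± 0.302 FPKM in controls of the 4-library set (SD, n = 2 each). Its log2 fold change was -0.08 ± 0.12 (SE, adjusted p = 0.732 in limma). The smallest adjusted p values were those of Rfx3 (0.28 ± 0.08, adjusted p = 0.0563) and Spag17 (0.49 ± 0.14, adjusted p = 0.0598), both above 0. Rfx3 passed at a filter of at least 1 FPKM in 3 libraries, under median-ratio scaling, and without WAY-treated control replicate 3 or untreated mutant replicate 3, and Spag17 passed without untreated control replicate 3. Within sets the median of the 37 genes was -0.01 in the 8-library set and 0.02 in the 4-library set.

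In the same comparison some epithelial genes were lower in mutants. Of 24 pan-epithelial genes 12 fell and 0 rose, with a median log2 fold change of -0.27, among them Epcam (-0.42 ± 0.06, adjusted p = 0.0033) and Spint2 (-0.34 ± 0.07, adjusted p = 0.0147). Of the oral and periderm genes 7 of 13 fell, led by Krt17 (-0.76 ± 0.09, adjusted p = 0.00142) and with Sfn at -0.43 ± 0.08 (adjusted p = 0.0104), and of the basal genes 5 of 13. Of the 14 nasal secretory genes 1 fell, Foxa2 (-0.79 ± 0.18, adjusted p = 0.025), and the list's median was -0.05, while of the 13 genes of placode-derived epithelium 1 rose (Dlx6) and 2 fell (Eya1 and Eya2), with a median of -0.13. Of the 146 other motile cilia genes 4 fell and 0 rose (Dnaaf5, Mns1, Morn2 and Tubb4b), with a median of -0.01, and of the 55 primary cilia genes 1 rose (Kifap3) and 1 fell (B9d2), with a median of -0.02. Median-ratio scaling changed the split over all genes, with 586 higher and 625 lower in place of 459 higher and 931 lower.

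In WAY-treated embryos alone 1 of the 37 cilia genes passed, beside 1538 of all genes (8.55%, or 6.54% with the litter as a block). That gene was Rfx3 (chr19:27761721-28011166, minus strand), which had 3.05, 3.26 and 3.01 FPKM in the 3 WAY-treated mutants, against 2.17, 2.03 and 2.56 FPKM in the 3 WAY-treated controls. The groups did not overlap, in either set. The fold change was 0.45 ± 0.11 (SE, adjusted p = 0.0362 in limma; 0.0481 with the litter as a block). The call ended in the 8-library set alone (0.442, adjusted p = 0.15), without the set term (0.122) and with a term for heterozygous embryos (0.0833). It also ended without WAY-treated mutant replicate 1, 2 or 3 (adjusted p = 0.0909, 0.132 and 0.0735), WAY-treated control replicate 1 or 2 (0.0817 and 0.0859), untreated mutant replicate 2 (0.0556) and untreated control replicate 2 or 3 (0.0555 and 0.0523). Without WAY-treated control replicate 3, Tekt2 passed beside Rfx3.

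The other 36 genes missed the threshold in that comparison, with a median over all 37 of -0.17 and 10 of 37 above 0. The fold change of Foxj1 was -0.37 ± 0.17 (adjusted p = 0.179) and that of Rsph1 -0.56 ± 0.23 (adjusted p = 0.143). Of the pan-epithelial genes 6 of 24 fell, with a median of -0.29. Within sets the median of the 37 genes was -0.27 in the 8-library set (2 embryos a side) and 0.06 in the 4-library set (1 a side). Over all genes, median-ratio scaling gave 724 higher and 546 lower in place of 617 higher and 921 lower.

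In untreated embryos 0 of the 37 genes passed, beside 105 of all genes (0.584%). The median log2 fold change was 0.15, with 30 of 37 above 0, and Foxj1 had 0.22 ± 0.17 (adjusted p = 0.81). This lean rested on 1 control library. Without untreated control replicate 2, the median was -0.03, 15 of 37 were above 0 and the value of Foxj1 was 0.004. The largest value was that of Spag17 (0.62 ± 0.20, adjusted p = 0.272), whose exons overlap those of Wdr3 over 9.7% of their length. The within-set medians were 0.23 in the 8-library set, where the untreated controls were all Pax9+/-, and 0.06 in the 4-library set.

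**Figure D5:**
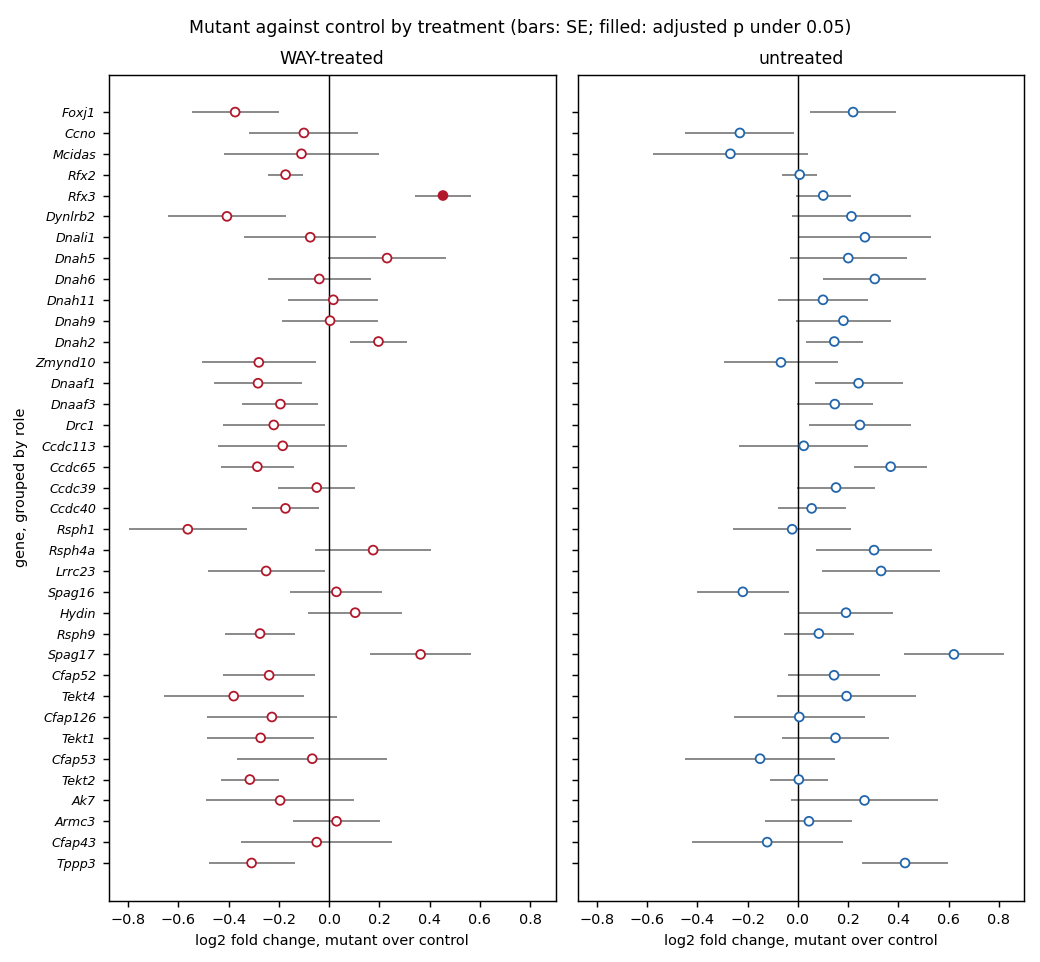
Log2 fold change of mutant over control for the 37 genes (rows, grouped by role) in WAY-treated (left) and untreated embryos (right), with bars of 1 SE from the fit over 12 libraries and filled points for adjusted p under 0.05. Rfx3 in the treated embryos, at 0.45, is the 1 filled point, and the other points lie within 0.63 of 0 on both sides.

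The genotype effect did not differ detectably between treatments. The interaction passed in 0 of the 37 genes and in 0 of all 17981 (0%), with 4 and 1835 at an unadjusted p under 0.05. The median of the 37 interaction values was -0.23 and that of Foxj1 was -0.59 ± 0.24 (adjusted p = 0.474), and without untreated control replicate 2 they were -0.09 and -0.38.

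WAY-262611 was compared with no treatment in the same fit with the litter as a random block. The correlation estimated within litters was negative (-0.127), which narrows the errors, and litters are wholly treated or untreated, so treatment and litter cannot be told apart within a set. Over both genotypes 1 of the 37 genes passed, beside 1356 of all genes (7.54%, with 775 higher and 581 lower, or 533 and 709 under median-ratio scaling). That gene was Tppp3 (0.51 ± 0.10, adjusted p = 0.0249 in limma). Of the 37 genes 34 were above 0, with a median of 0.17, and Foxj1 had 0.29 ± 0.10 (adjusted p = 0.0809). Most of the genes vary together and the share of all genes above 0 was not computed, so that count has no background. With litter ignored, 0 of all genes passed and Tppp3 had an adjusted p of 0.131. The Tppp3 call also ended in the 8-library set alone (0.325), without the set term (an adjusted p that rounds to 1) and with a term for heterozygous embryos (0.0794). It ended without WAY-treated mutant replicate 1 or 3 (0.0507 and 0.142), WAY-treated control replicate 2 or 3 (0.0607 and 0.085), untreated mutant replicate 2 (0.109) and untreated control replicate 2 or 3 (0.102 and 0.0502). Without WAY-treated control replicate 1, 12 of the 37 genes passed, Foxj1 among them (0.29, adjusted p = 0.0348), beside 4919 of all genes.

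In controls 1 of the 37 genes passed, again Tppp3, beside 1152 of all genes (6.41%, with 558 higher and 594 lower, or 405 and 703 under median-ratio scaling). Tppp3 had 12.8, 24.1 and 18.5 FPKM in WAY-treated controls, against 5.24, 10.8 and 15.2 FPKM in untreated controls, ranges that overlap across the sets but not within either. Its fold change was 0.88 ± 0.16 (adjusted p = 0.0261). The median over the 37 genes was 0.30, with 35 above 0, a count again without a background, and Foxj1 had 0.59 ± 0.16 (adjusted p = 0.0505). Foxj1 passed at the filter of 1 FPKM in 3 libraries (adjusted p = 0.0422) and, as 1 of 5 cilia genes, without WAY-treated control replicate 1 (0.0469). With litter ignored, 79 of all genes and 0 of the 37 passed, Tppp3 having an adjusted p of 0.0503. The call of Tppp3 also ended in the 8-library set alone (0.176), without the set term (0.835), and without WAY-treated control replicate 2 (0.0714) or untreated control replicate 2 or 3 (0.173 and 0.0639). Without untreated control replicate 2 the median of the 37 genes was 0.13 and 0 of all genes passed. The within-set medians were 0.41 in the 8-library set and 0.09 in the 4-library set, beside pan-epithelial medians of 0.22 and -0.18. Medians over all genes kept were 0.04 and 0.03. In the 8-library set both untreated controls were Pax9+/-, against 1 of the 2 treated controls.

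In mutants 0 of the 37 genes and 0 of all genes (0%) passed, with 0 and 821 at an unadjusted p under 0.05. The median over the 37 genes was 0.04, with 22 above 0, and Foxj1 had -0.01 ± 0.16 (an adjusted p that rounds to 1). The mutants of the 8-library set differed little among themselves, at 22.4 to 25.9 FPKM of Foxj1, and the median within the 8-library set was -0.02. The other motile cilia genes gave 3 higher of 146 over both genotypes (Wdr54, Rsph3b and Cfap161), 1 in controls (Rsph3b) and 0 in mutants, beside 7.54%, 6.41% and 0% of all genes, with medians of 0.14, 0.27 and 0.02. With litter ignored, 0 of all genes passed over both genotypes, those 3 included.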

How the data were processed

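Palatal shelf RNA of 12 single embryos was sequenced from oligo(dT)-selected libraries, per the labels' protocols. The authors deposited FPKM values for 19083 genes. The submitters' processing notes list Novoalign 2.08.03, DESeq2 and the build mm10, with no roles. Which annotation, counter and strand setting were used is not given in the sources used here. Values were whole multiples of 1 read within 0.001 read for 19080 genes (99.98%), and the recovered reads, 36.8 to 49.8 M per library, serve as depth and bound the precision of low genes; they were not used for a count test.

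Symbols (18752 genes) and coordinates came from GENCODE M21 and promoters from RefSeq. Genes with a mean of at least 0.1 FPKM (17981) were tested on log2(FPKM + 0.1), where fold changes of low genes are understated, with limma 3.58.1 in R 4.3.3, two-sided, adjusted by Benjamini-Hochberg at 0.05. Genotype and interaction fits had 4 group means and a set term, and treatment fits added litter as a random block. The fits were also run on simulated data with changes by genotype alone and no litter effect. That run cannot show how the treatment fits with a litter block behave, and its outcome is not given here. Python 3.11.15 with pandas 2.3.3, numpy 2.4.6, scipy 1.17.1 and matplotlib 3.10.9 did the rest.

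The members and lists were chosen with earlier results of these data known. Values of every library were given for Foxj1 and the most abundant member of each role. For members past a threshold, values of every library of the groups compared were given. The 10 genes most like the members and, per list, the 2 most abundant genes were named; other names were chosen after their values were seen. Litter is the number that sample titles share. After group and set, mutant and control deviations of a litter correlated at -0.279 (318 and 422) and -0.386 (389 and 393), values that removing the set means pushes below 0, so whether the numbers pair the samples was not shown. The labels do not name batches, and p values measure the spread between embryos of few litters. Alternatives were other pseudocounts, filters, scaling and terms, the 8-library set alone, and each library left out.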

Additional observations from a re-analysis of the deposited data

Results flagged for a closer look

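In the 8-library set the 4 mutant and the 4 control libraries, treated and untreated together, were examined for each gene and for the mean of the genes, and 4 of the 78 groups of 4 libraries tested held a library far from the other 3 (by Dixon's 95% critical value for the gap over the range); chance gives about 1 in 20. Dnah5, an outer-arm heavy chain, was at 0.345 FPKM in WAY-treated mutant replicate 2, against 0.275 to 0.284 FPKM in the other mutants of the 8-library set. Spag16, a central pair gene, was at 0.643 FPKM in untreated control replicate 3, against 0.405 to 0.446 in the other controls of that set. Tekt2 was at 14.7 FPKM in WAY-treated control replicate 2, against 9.41 to 10.2 in the other controls of that set. Ak7 was at 0.240 FPKM in untreated control replicate 2, against 0.646 to 0.725 in the other controls of that set.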

How the results depend on the processing

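The median difference of the cilia genes between the 8-library and the 4-library set was 1.56, and 0.898 with a pseudocount of 0.5 FPKM, 0.608 with 1 FPKM and 2.38 over genes that reached 1 FPKM in 3 or more libraries, a filter that genes can pass through the 8-library set alone and that therefore favours large differences. It was 1.51 to 1.65 with each library left out in turn, and moved by less than the spread between libraries with no filter and with median-ratio scaling. The cause of the changes below was not tested. The number of cilia genes past the threshold was 0 under every alternative in untreated embryos, in WAY against untreated mutants and in the interaction. Over both treatments mutant against control gave 0, and 1 with the filter at 1 FPKM and with median-ratio scaling (0 to 1 with each library left out). In WAY-treated embryos it gave 1, and 0 with no set term, with a term for heterozygous embryos and in the 8-library set alone (0 to 2). WAY against untreated over both genotypes gave 1, and 0 with no set term, with the heterozygous term, in the 8-library set alone and with no litter block (0 to 12). In controls it gave 1, and 3 with the filter at 1 FPKM, and 0 with no set term, in the 8-library set alone and with no litter block (0 to 5). With litter as a replicate block, 1161, 80, 1176 and 0 of all genes passed over both treatments, untreated, WAY-treated and in the interaction, in place of 1390, 105, 1538 and 0, and the number of cilia genes past the threshold was the same.

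Counts over all genes moved more: without the set term they were 158, 18 and 68 for mutant against control over both treatments, untreated and WAY-treated, and 0 for WAY against untreated over both genotypes and in controls.

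Reversed signs were all of values that did not pass. Foxj1 over both treatments (-0.08) was 0.023 with the heterozygous term and -0.18 to 0.021 with each library left out (above 0 without untreated control replicate 3). Foxj1 for WAY in mutants (-0.007) was 0.015 with no set term, 0.001 with the heterozygous term, 0.0015 with no litter block, and -0.096 to 0.060 with each library left out. Rfx3 in untreated embryos (0.10) was -0.0008 in the 8-library set alone, and Rfx3 for WAY in mutants (-0.004) was 0.065 there and -0.096 to 0.071 with each library left out. Tppp3 over both treatments (0.06) was -0.017 to 0.15 with each library left out, and below 0 without WAY-treated control replicate 3 (-0.011) or untreated control replicate 1. Genes at a few reads per library, such as Dynlrb2 and Tekt4 in the 4-library set, are limited by counting error.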
